A study of Homo sapiens with 9 samples.

Results

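The 10 genes examined here were grouped as perilipins and lipid droplet proteins. They were taken by name, as 10 of the 19317 genes in a table of estimated RNA-seq counts. The rule itself uses no measured value, but the genes were chosen with earlier results of these data known. The 10 genes comprise 4 perilipins (PLIN2, PLIN3, PLIN4 and PLIN5), CIDEB and CIDEC of the CIDE family, the small droplet protein HILPDA, seipin (BSCL2) and the fat storage-inducing transmembrane proteins FITM1 and FITM2. The cells were HepG2, a liver tumour line in wide use as a stand-in for hepatocytes, and the labels give every sample the genotype WT.

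The 9 libraries fell into 3 groups of 3. DNL cells, a model of activated de novo lipogenesis, spent 1 week in DMEM to which T0901317 (10 µM), a synthetic agonist of the liver X receptors, and insulin (10 µg/ml) were added. OA cells received DMEM with 25 µM oleic acid, a monounsaturated fatty acid dissolved in 11% bovine serum albumin in PBS, over 6 hours. WT cells, the controls, were kept in RPMI, and every medium held 10% serum and 1% antibiotics. Medium, added compounds and duration differ together between the groups and cannot be told apart, and no library represents albumin alone.

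A lipid droplet is a core of triacylglycerol and sterol esters inside a single layer of phospholipid, and it buds from the endoplasmic reticulum, where seipin and the FITM proteins act. Perilipins then coat the surface and govern how lipases reach the core. In hepatocytes PLIN2 is the main coat, its protein is broken down when no droplet binds it, and its gene is a known target of the fatty acid receptors of the PPAR family. CIDE proteins move lipid between droplets or towards lipoproteins, and HILPDA holds back PNPLA2, the lipase that opens triacylglycerol breakdown.

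Total estimated counts were between 7836520 and 43043347 per library, lowest in OA replicate 3, and libraries correlated at 0.982 or more within groups and at 0.964 or less between groups. Levels are given in CPM, counts scaled to a common library size by edgeR's TMM factors. The 3 counts that a reading of 0 leaves possible, by counting error only, came to 0.0691 CPM in WT replicate 1 and 0.356 CPM in OA replicate 3, the extremes in depth. All 10 hepatocyte markers checked were detected, and their summed level was 75620 to 77660 CPM in DNL, 13450 to 15340 CPM in OA and 41790 to 43350 CPM in WT. Of 8 adipocyte markers, 5 had any count, with FABP4, LPL and CIDEA at 0, and their sum was 26.3 to 32.1 CPM in DNL, 26.7 to 31.9 CPM in OA and 48.4 to 52.9 CPM in WT. That sum lay mostly in PPARG, which averaged 23.7 CPM in DNL, 23.9 CPM in OA and 46.5 CPM in WT. CFD averaged 2.66 CPM in DNL, 3.32 CPM in OA and 1.80 CPM in WT, so the adipocyte markers did not all fall. Of 7 macrophage markers, 5 had any count, with CD163 and MARCO at 0, and their sum of 1618 to 1712 CPM in DNL, 1057 to 1092 CPM in OA and 979 to 990 CPM in WT lay mostly in LYZ. The part of these shifts in the results was not tested, and in bulk RNA fewer cells of a type and less RNA per cell cannot be told apart.

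The 4 perilipins took different courses in the OA cells, 2 called higher and 2 lower than WT where 60.0% of all genes tested were called, so the bases before their starts are shown for comparison. Each line gives the 250 bases before the RefSeq start of the gene (GRCh38.p14), read 5′ to 3′ on the minus strand, at chr9:19127493-19127742 for PLIN2, chr19:4867668-4867917 for PLIN3, chr19:4518487-4518736 for PLIN4 and chr19:4535225-4535474 for PLIN5. Capitals mark ACGTG (the core of the hypoxia response element), GGGCGG (the GC box) and TATAA (the TATA core), on either strand.
PLIN2: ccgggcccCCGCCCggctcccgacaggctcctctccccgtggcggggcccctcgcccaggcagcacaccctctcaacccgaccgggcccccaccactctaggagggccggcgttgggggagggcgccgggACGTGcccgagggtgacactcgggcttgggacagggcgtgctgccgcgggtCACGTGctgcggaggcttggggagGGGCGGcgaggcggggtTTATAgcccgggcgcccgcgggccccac
PLIN3: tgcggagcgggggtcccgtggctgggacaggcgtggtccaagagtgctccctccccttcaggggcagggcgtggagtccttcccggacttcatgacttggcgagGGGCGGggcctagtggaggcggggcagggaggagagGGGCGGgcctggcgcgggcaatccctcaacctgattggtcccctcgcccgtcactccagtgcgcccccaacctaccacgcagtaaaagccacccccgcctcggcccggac
PLIN4: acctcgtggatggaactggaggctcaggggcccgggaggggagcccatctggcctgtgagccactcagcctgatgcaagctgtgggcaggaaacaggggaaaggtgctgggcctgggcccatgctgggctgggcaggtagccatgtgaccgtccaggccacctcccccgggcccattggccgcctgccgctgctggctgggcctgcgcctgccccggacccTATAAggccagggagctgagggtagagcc
PLIN5: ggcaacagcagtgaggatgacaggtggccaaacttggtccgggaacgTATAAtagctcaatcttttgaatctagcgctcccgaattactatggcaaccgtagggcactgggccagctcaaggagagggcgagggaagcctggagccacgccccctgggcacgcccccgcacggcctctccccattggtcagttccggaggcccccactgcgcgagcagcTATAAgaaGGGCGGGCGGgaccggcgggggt

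PLIN2 held ACGTG 3 times, counting both strands of a CACGTG box that ends 64 bases before the start, while the other perilipin windows held none. ACGTG occurs in 18.5% and CACGTG in 6.34% of the 35116 RefSeq promoter windows of that length. PLIN2, PLIN4 and PLIN5 each had TATAA on either strand 24 to 27 bases before the start, a motif found anywhere in 18.9% of windows, and PLIN3 had none. GGGCGG was present in PLIN2, PLIN3 and PLIN5 (42.6% of windows) but not in PLIN4, and its 2 matches in PLIN5 overlap. None of the 4 windows held AGGTCA, the half-site of PPAR and LXR receptors (12.1% of windows), nor its direct repeats with a spacer of 1 base (0.0171%) or of 4 bases (0.0142%), nor TCACNCCAC, a sterol regulatory element (0.883%). Of the 10 genes, 9 were matched by symbol in the promoter table, with 13 starts, and HILPDA was not. Across those 13 windows, ACGTG was also present before 1 of the 3 starts of BSCL2, and TCACNCCAC before 1 of the 2 starts of CIDEC. A match is a run of letters and not evidence of binding. An absence says as little, since the AGGTCA repeats are rare in all windows and bases further from the start were not searched.

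PLIN2 was the most abundant of the 10 genes in every group and the gene with the largest rise in OA cells, and it was also higher in DNL cells. Its level was 713, 691 and 732 CPM in DNL replicates 1 to 3, 3216, 3433 and 3378 CPM in OA replicates 1 to 3, and 416, 411 and 409 CPM in WT replicates 1 to 3. The 3 groups did not overlap, and the replicates within a group differed by little, with a coefficient of variation of 2.88% in DNL, 3.36% in OA and 0.858% in WT. PLIN2 (chromosome 9, 19108375 to 19149290, minus strand, in GENCODE release 29) rose 1.73-fold in DNL against WT (log2 fold change 0.79, SE 0.0373, adjusted p = 2.21e-09). In OA it rose 8.12-fold over WT (log2 fold change 3.02, SE 0.0398, adjusted p = 7.88e-14), a larger absolute change than that of 98.1% of the genes tested. DNL lay below OA by 2.23 on the log2 scale (log2 fold change -2.23, SE 0.0386, adjusted p = 2.39e-13). These tests are edgeR's quasi-likelihood test across 13636 genes with Benjamini-Hochberg adjustment, and a gene was called at an adjusted p under 0.05.

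**Figure D1:**
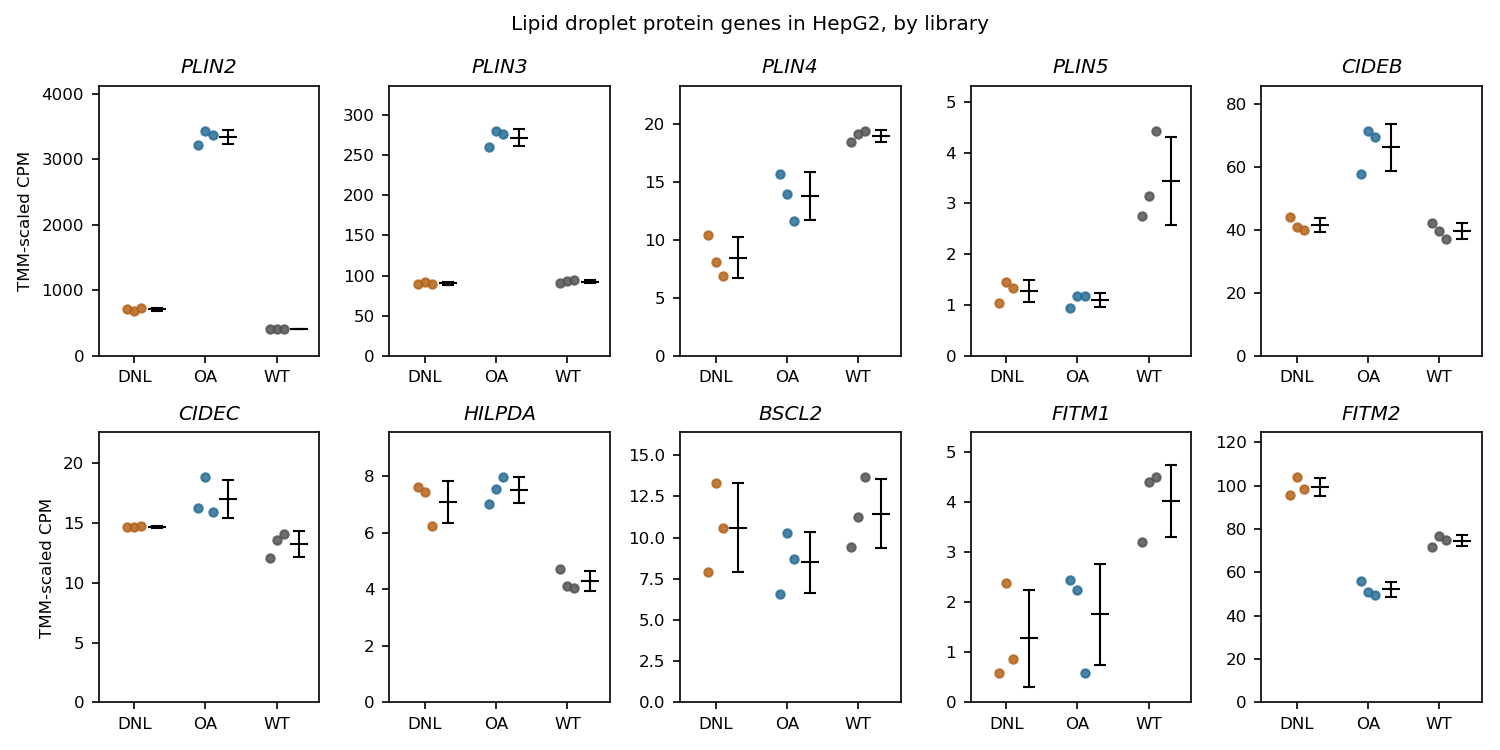
TMM-scaled CPM (vertical axis, from 0) of each gene in the 3 DNL, 3 OA and 3 WT libraries; points are libraries in replicate order, and the black mark with its bar beside them is the mean ± SD. PLIN2 and PLIN3 stand highest in OA, PLIN4 and PLIN5 highest in WT, and FITM2 highest in DNL.

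PLIN3, a perilipin that waits in the cytosol and binds droplets as they form, was called higher than WT in OA cells but not in DNL cells. Its level was 89.2, 92.2 and 89.1 CPM in DNL, 259, 280.0 and 276 CPM in OA, and 90.2, 93.5 and 94.1 CPM in WT. The OA libraries all lay above every other library, and the DNL and WT values overlapped. PLIN3 (chromosome 19, 4838341 to 4867768, minus strand) was 2.94-fold higher in OA than in WT (log2 fold change 1.55, SE 0.0441, adjusted p = 2.16e-11). DNL was lower than OA (log2 fold change -1.59, adjusted p = 9.23e-12), which is the test of the difference between the models. In DNL against WT the log2 fold change was -0.04, with a 95% interval of -0.13 to 0.06 (adjusted p = 0.485). Scaling by library totals in place of TMM made this last comparison a call (log2 fold change -0.20, adjusted p = 0.00174), and that scaling moved the median of all genes by a like amount, to -0.18.

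PLIN4 and PLIN5 were lower in both models than in WT. PLIN4, a long perilipin best known from adipocytes and muscle, measured 10.4, 8.12 and 6.90 CPM in DNL, 15.7, 14.0 and 11.6 CPM in OA, and 18.4, 19.2 and 19.4 CPM in WT. None of its 3 groups overlapped another, with DNL lowest and OA between. PLIN4 (chromosome 19, 4502180 to 4518465, minus strand) fell to 0.449 of its WT level in DNL (log2 fold change -1.16, SE 0.147, adjusted p = 2.24e-05) and to 0.731 of it in OA (log2 fold change -0.45, SE 0.146, adjusted p = 0.0169). Leaving out OA replicate 3, the shallowest library, ended the OA call (adjusted p = 0.0559, over a range of 0.00725 to 0.0559 in 15 alternatives). DNL was also lower than OA (log2 fold change -0.70, adjusted p = 0.00133).

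PLIN5, which ties droplets to mitochondria in tissues that burn fat, was the least abundant of the 10 genes per length in all 3 groups. Its level was 1.05, 1.46 and 1.33 CPM in DNL, 0.948, 1.19 and 1.19 CPM in OA, and 2.76, 3.15 and 4.43 CPM in WT. Every WT library lay above every treated library, and DNL and OA overlapped. The values rest on few reads, with summed counts of 88 in DNL, 58 in OA and 334 in WT. PLIN5 (chromosome 19, 4522531 to 4535224, minus strand) fell to 0.369 of its WT level in DNL (log2 fold change -1.44, SE 0.278, adjusted p = 0.000731) and to 0.325 of it in OA (log2 fold change -1.62, SE 0.292, adjusted p = 0.000345). Between DNL and OA the log2 fold change was 0.19, with a 95% interval of -0.48 to 0.85 (adjusted p = 0.669).

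PLIN4 and PLIN5 lie 4065 bases apart on the same strand of chromosome 19, with no other gene of the table between them. PLIN3 is 303116 bases from PLIN5, with 7 genes of the table between. PLIN4 shares 32 exonic bases with HDGFL2 on the other strand, which was at 18.5 CPM in DNL, 21.1 CPM in OA and 19.1 CPM in WT on average. PLIN5 shares 1047 exonic bases with an overlapping coding gene on its own strand that was not analysed here, so its reads may be shared. PLIN3 shares 502 exonic bases with an antisense gene that was also not analysed here.

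The balance of perilipin transcripts moved towards PLIN2 in both models. Divided by the length of the principal transcript in GENCODE release 29, the 4 perilipins summed to 402 ± 9.58 CPM per kb in DNL, 1814 ± 61.5 CPM per kb in OA and 253 ± 0.521 CPM per kb in WT (SD, n = 3). PLIN2 made up 89.9% ± 0.445 of that sum in DNL, 93.4% ± 0.0255 in OA and 82.6% ± 0.538 in WT. The share of PLIN3 was 9.63% ± 0.412 in DNL, 6.42% ± 0.0419 in OA and 15.7% ± 0.386 in WT. In OA the PLIN3 share was thus lowest although its level was highest. PLIN4 held 0.332% ± 0.0713 in DNL, 0.12% ± 0.021 in OA and 1.18% ± 0.034 in WT, and PLIN5 0.129% ± 0.0229, 0.0247% ± 0.00233 and 0.552% ± 0.141 of the sum in DNL, OA and WT. With the longest coding transcript in place of the principal one, the PLIN2 share was 89.9% in DNL, 93.4% in OA and 82.6% in WT.

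The CIDE genes and HILPDA were higher in OA than in WT, and HILPDA also in DNL. CIDEB, which in hepatocytes helps to load lipid onto very low density lipoprotein, measured 44.1, 40.7 and 39.9 CPM in DNL, 57.6, 71.3 and 69.5 CPM in OA, and 42.0, 39.7 and 37.1 CPM in WT. The OA libraries all lay above the rest, while DNL and WT overlapped. CIDEB (chromosome 14, 24305096 to 24311430, minus strand) rose 1.67-fold in OA against WT (log2 fold change 0.74, SE 0.0846, adjusted p = 6.61e-06), and DNL was lower than OA (log2 fold change -0.67, adjusted p = 1.53e-05). In DNL against WT its log2 fold change was 0.07, with a 95% interval of -0.11 to 0.25 (adjusted p = 0.504), and under library-total scaling the value was -0.10 (adjusted p = 0.321).

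CIDEB overlaps NOP9 and LTB4R2 on the other strand, with 1954 and 1276 exonic bases shared, and whether the counting used strand is not given in the sources used here. NOP9 averaged 74.7 CPM in DNL, 108 CPM in OA and 117 CPM in WT, and LTB4R2 4.71 CPM in DNL, 5.20 CPM in OA and 13.6 CPM in WT. On average both were highest in WT, where CIDEB was lowest, and both were, like CIDEB, higher in OA than in DNL. How reads were split between CIDEB and these genes was not tested.

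CIDEC, which drives the growth of large droplets by moving lipid from smaller ones, changed less. Its level was 14.7, 14.6 and 14.8 CPM in DNL, 16.3, 18.8 and 15.9 CPM in OA, and 12.0, 13.6 and 14.1 CPM in WT. The groups did not overlap, with OA highest and WT lowest, but the gaps were small. CIDEC (chromosome 3, 9866711 to 9880254, minus strand) rose 1.30-fold in OA against WT (log2 fold change 0.37, SE 0.104, adjusted p = 0.0076). Leaving out OA replicate 2 ended this call (adjusted p = 0.0574, over a range of 0.00296 to 0.0574 in 15 alternatives). DNL against WT was not called (log2 fold change 0.15, 95% interval -0.07 to 0.37, adjusted p = 0.234, and log2 fold change -0.02 with scaling by library totals), and neither was DNL against OA (log2 fold change -0.22, adjusted p = 0.0835), which that scaling did call (log2 fold change -0.45, adjusted p = 0.00223).

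HILPDA, which low oxygen and fatty acids are both known to induce, was at 7.61, 7.45 and 6.23 CPM in DNL, 7.03, 7.54 and 7.96 CPM in OA, and 4.72, 4.13 and 4.06 CPM in WT. Both models lay above WT in every library and overlapped each other. HILPDA (chromosome 7, 128455849 to 128458418, plus strand) rose 1.64-fold in DNL against WT (log2 fold change 0.72, SE 0.153, adjusted p = 0.00151). It rose 1.74-fold in OA against WT (log2 fold change 0.80, SE 0.156, adjusted p = 0.000663). The log2 fold change of DNL against OA was -0.08, with a 95% interval of -0.42 to 0.26 (adjusted p = 0.677). HILPDA shares 186 exonic bases with HILPDA-AS1 and 175 with a further overlapping gene. Both are annotated on its own strand and were not analysed here, so HILPDA reads may be shared.

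The genes of droplet assembly did not move together, and FITM2 changed in opposite directions in the 2 models. FITM2, a membrane protein of the endoplasmic reticulum needed for normal droplet budding, measured 95.9, 104 and 98.3 CPM in DNL, 56.1, 50.8 and 49.5 CPM in OA, and 71.8, 76.9 and 74.8 CPM in WT. None of the groups overlapped. FITM2 (chromosome 20, 44302838 to 44311169, minus strand) rose 1.33-fold in DNL against WT (log2 fold change 0.41, SE 0.0587, adjusted p = 5.84e-05). In OA it fell to 0.701 of the WT level (log2 fold change -0.51, SE 0.0612, adjusted p = 9.78e-06). DNL was 1.90-fold higher than OA (log2 fold change 0.93, SE 0.0615, adjusted p = 2.87e-08), and all 3 calls kept their direction in each of the 15 alternatives.

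FITM1, the relative of FITM2 that is best known from skeletal and heart muscle, was scarce and uneven. Its level was 0.585, 2.40 and 0.873 CPM in DNL, 2.45, 2.24 and 0.594 CPM in OA, and 3.20, 4.40 and 4.50 CPM in WT. Every WT library lay above every treated library, from summed counts of 76 in DNL, 104 in OA and 392 in WT. FITM1 (chromosome 14, 24131275 to 24132849, plus strand) was called lower in DNL than in WT (log2 fold change -1.74, SE 0.516, adjusted p = 0.015). Leaving out DNL replicate 1 or 3 ended that call (adjusted p = 0.056 and 0.0604), and leaving out DNL replicate 2 moved the log2 fold change to -2.46 (adjusted p = 0.000959). OA against WT was not called (log2 fold change -1.11, 95% interval -2.23 to 0.01, adjusted p = 0.0799), but was called without DNL replicate 2 (adjusted p = 0.0252) and in a fit of those 2 groups alone (adjusted p = 0.0292). DNL against OA (log2 fold change -0.63, adjusted p = 0.343) was also called without DNL replicate 2 (log2 fold change -1.36, adjusted p = 0.0273). FITM1 shares 554 exonic bases with an overlapping coding gene that was not analysed here.

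BSCL2, which encodes seipin, the protein that forms a ring where the droplet joins the endoplasmic reticulum, was not called in any comparison. Its level was 7.91, 13.3 and 10.6 CPM in DNL, 6.55, 10.2 and 8.67 CPM in OA, and 9.44, 11.3 and 13.6 CPM in WT. All 3 groups overlapped, and the coefficient of variation was 18.4% to 25.4%. The log2 fold change of BSCL2 (chromosome 11, 62690275 to 62709845, minus strand) was -0.12 in DNL against WT (95% interval -0.58 to 0.34, adjusted p = 0.653) and -0.41 in OA against WT (95% interval -0.89 to 0.07, adjusted p = 0.125). In DNL against OA it was 0.29 (95% interval -0.20 to 0.77, adjusted p = 0.279). The read-through gene HNRNPUL2-BSCL2 shares 1610 exonic bases with BSCL2 on the same strand and was not analysed here, so the level may miss reads given to it.

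**Figure D2:**
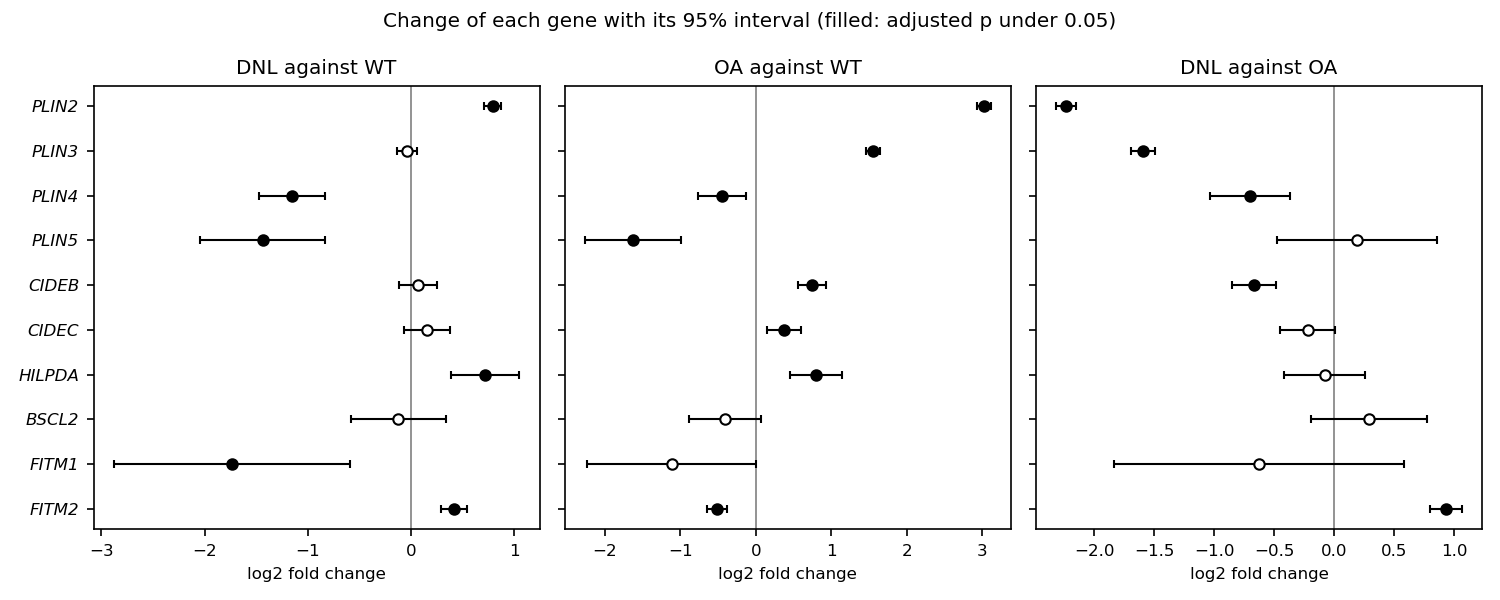
Log2 fold change (horizontal axis) of each gene in DNL against WT, OA against WT and DNL against OA, with its 95% interval; filled points passed an adjusted p of 0.05, open points did not. PLIN2 (0.79 and 3.02) and HILPDA (0.72 and 0.80) lie above 0 in both comparisons with WT, PLIN4 and PLIN5 below 0 in both, and FITM2 on opposite sides.

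Counted over the 10 genes, 10 of which passed the filter on low counts, the DNL cells had 3 above WT and 3 below. Calls were common in that comparison, at 53.8% of all 13636 genes tested (27.1% higher, 26.8% lower), so 6 of 10 is near the background. In OA against WT 5 were higher and 3 lower, against 60.0% of all genes (30.4% higher, 29.7% lower). In DNL against OA 1 was higher and 4 were lower, against 62.8% of all genes (31.9% higher, 30.9% lower). Groups did not overlap for 7 of the 10 in DNL against WT, 9 in OA against WT and 6 in DNL against OA, where 64.7%, 65.7% and 66.2% of all genes had no overlap. The median log2 fold change over the 10 was 0.02 in DNL against WT, -0.02 in OA against WT and -0.42 in DNL against OA, beside -0.02, -0.03 and 0.01 over all genes. Of all calls, 50.3% were higher in DNL than in WT and 50.8% higher in DNL than in OA, and scaling by library totals made these 32.2% and 33.9%. DNL and OA share the WT libraries, so their comparisons with WT are not independent.

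Levels compared between genes per kb of principal transcript put PLIN2 first in each group, at 361 ± 10.4 CPM per kb in DNL, 1695 ± 57.0 CPM per kb in OA and 209 ± 1.79 CPM per kb in WT (SD, n = 3). PLIN3 came second, at 38.7 ± 0.763, 117 ± 4.65 and 39.7 ± 0.896 CPM per kb in DNL, OA and WT. The third place was held by FITM2 in DNL (21.6 ± 0.876 CPM per kb) and by CIDEB in OA (27.4 ± 3.10 CPM per kb), while in WT CIDEB (16.4 ± 1.02 CPM per kb) and FITM2 (16.2 ± 0.559 CPM per kb) overlapped. CIDEC was at 11.5 ± 0.0478 CPM per kb in DNL, 13.3 ± 1.24 CPM per kb in OA and 10.4 ± 0.845 CPM per kb in WT. FITM2 came just after it in OA, at 11.3 ± 0.766 CPM per kb, and ahead of it in the other groups, as did CIDEB. BSCL2 and HILPDA overlapped in DNL and in OA, as did PLIN4 and FITM1. In WT the neighbours FITM1 and HILPDA, and HILPDA and PLIN4, overlapped. PLIN5 was last, at 0.518 ± 0.0861 CPM per kb in DNL, 0.448 ± 0.0559 CPM per kb in OA and 1.40 ± 0.353 CPM per kb in WT, and it overlapped FITM1 in DNL.

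**Figure D3:**
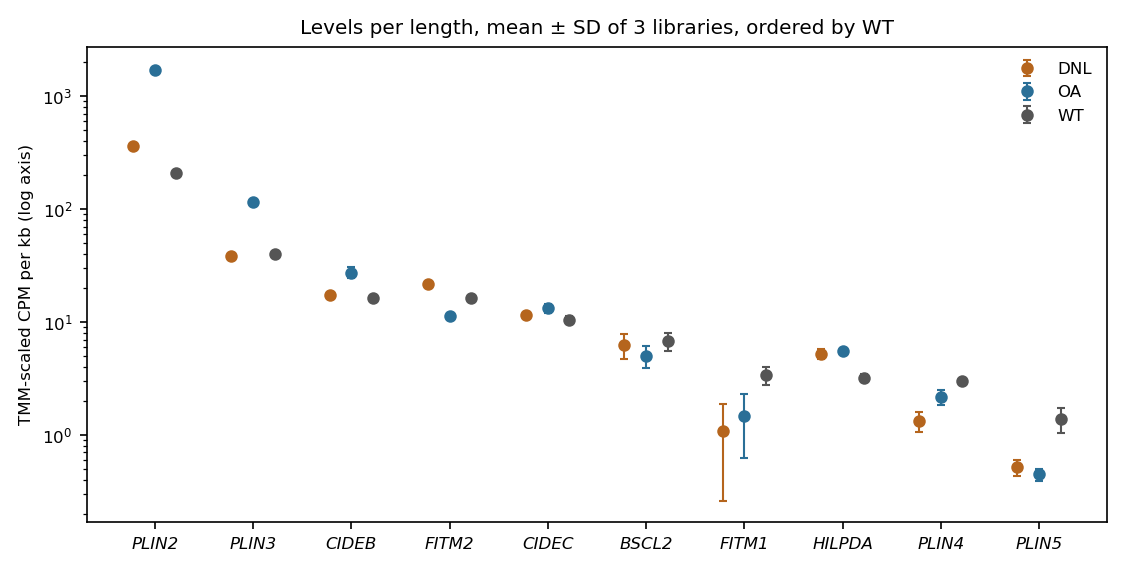
Mean ± SD over 3 libraries of TMM-scaled CPM per kb of principal transcript (vertical log axis) for each gene in DNL, OA and WT, ordered by the WT mean. PLIN2 and PLIN3 hold the first places in every group and PLIN5 the last.

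Other genes of droplet metabolism were described from 3 lists that hold none of the 10 genes. Of 22 further droplet proteins, 21 were tested, of which in DNL against WT 10 were higher and 4 lower, in OA against WT 8 higher and 7 lower, and in DNL against OA 10 higher and 7 lower. In the same order of comparisons, 27.1%, 30.4% and 31.9% of all genes tested were higher and 26.8%, 29.7% and 30.9% lower. ACSL3, an acyl-CoA synthetase of nascent droplets, averaged 941 ± 23.8 CPM in DNL, 222 ± 10.7 CPM in OA and 434 ± 19.6 CPM in WT (SD, n = 3), so it rose in DNL and fell in OA (adjusted p = 5.38e-10 and 2.02e-09 against WT). VPS13C, a lipid transfer protein, also rose in DNL against WT (log2 fold change 0.58, adjusted p = 2.67e-07), while LDAH and AIFM2 fell (log2 fold changes -0.27 and -0.18). LDAH and AIFM2 were called lower in OA against WT too (log2 fold changes -0.38 and -0.42). PCYT1A, the rate-limiting enzyme of phosphatidylcholine synthesis by the Kennedy pathway, averaged 89.1 ± 1.27 CPM in DNL, 131 ± 0.26 CPM in OA and 78.8 ± 0.607 CPM in WT. It rose in DNL and OA against WT (log2 fold changes 0.18 and 0.73, adjusted p = 0.00307 and 1.23e-08). AUP1 rose in both as well (log2 fold changes 0.15 and 0.66, adjusted p = 0.042 and 4.66e-07), and the retinal reductase DHRS3 fell in OA against WT (log2 fold change -1.35, adjusted p = 1.55e-10). LDAF1, the partner of seipin in droplet assembly and named after its values were seen, was low but higher in both models, at 2.13 ± 0.689 CPM in DNL, 4.67 ± 0.351 CPM in OA and 1.04 ± 0.219 CPM in WT (adjusted p = 0.00936 and 2.49e-05 against WT). The adipocyte coat PLIN1, also named after its values were seen, was at 1.47 ± 0.266 CPM in DNL, 0.527 ± 0.149 CPM in OA and 0.943 ± 0.201 CPM in WT and not called against WT (adjusted p = 0.14 and 0.0926), and CIDEA had no counts in any library.

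The lipases of the droplet and their regulators split between the models. Of 7 such genes, 4 were tested, with 2 higher and 2 lower in DNL against WT, 3 higher and 1 lower in OA against WT, and 2 higher and 2 lower in DNL against OA. In the same order of comparisons, 27.1%, 30.4% and 31.9% of all genes tested were higher and 26.8%, 29.7% and 30.9% lower. ABHD5, the activator of PNPLA2, averaged 4.21 ± 1.04 CPM in DNL, 24.0 ± 2.25 CPM in OA and 12.3 ± 1.19 CPM in WT, so it fell in DNL (log2 fold change -1.52, adjusted p = 4.05e-06) and rose in OA (log2 fold change 0.97, adjusted p = 8.94e-05). PNPLA2 itself went the same ways by less, with log2 fold changes of -0.20 in DNL and 0.38 in OA against WT (adjusted p = 0.00541 and 3.48e-05). PNPLA3, a relative of PNPLA2 on hepatocyte droplets, did the reverse, at 70.0 ± 4.55 CPM in DNL, 10.7 ± 0.6 CPM in OA and 13.5 ± 1.02 CPM in WT (adjusted p = 1.5e-10 and 0.00603 against WT). LIPA, the acid lipase of lysosomes, rose in both (log2 fold changes 1.43 and 0.47, adjusted p = 6.47e-11 and 1.75e-06). G0S2, LIPE and MGLL did not pass the filter on low counts. G0S2, the inhibitor of PNPLA2, had 19, 0 and 2 counts in DNL replicates 1 to 3, 0 in each OA library, and 16, 5 and 7 in WT replicates 1 to 3, so all but 2 of its DNL counts came from DNL replicate 1. MGLL, the monoacylglycerol lipase, had 1, 0 and 0 counts in DNL replicates 1 to 3, 3, 24 and 35 in OA replicates 1 to 3, and 0 in each WT library. Its OA level was 0.237, 0.791 and 4.16 CPM in replicates 1 to 3, so it rested mostly on OA replicate 3, the shallowest library.

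Of 12 genes that make neutral lipids, 12 were tested, with 5 higher and 4 lower in DNL against WT, 4 higher and 5 lower in OA against WT, and 9 higher and 2 lower in DNL against OA. In the same order of comparisons, 27.1%, 30.4% and 31.9% of all genes tested were higher and 26.8%, 29.7% and 30.9% lower. LPIN1, a phosphatidate phosphatase, rose in both models (log2 fold changes 1.36 and 1.39, adjusted p = 2.85e-10 and 2.37e-10). AGPAT2 also rose in DNL and OA against WT (log2 fold changes 1.74 and 1.36, adjusted p = 2.42e-07 and 2.26e-06). The glycerol phosphate acyltransferases GPAT3, GPAT4 and GPAM were all called lower in DNL against WT (log2 fold changes -2.05, -0.35 and -0.80). They diverged in OA against WT, where GPAT3 and GPAT4 were called higher and GPAM lower (log2 fold changes 1.26, 0.29 and -2.38). GPAT3, of the endoplasmic reticulum, averaged 14.6 ± 0.18 CPM in DNL, 144 ± 7.14 CPM in OA and 60.4 ± 1.66 CPM in WT, and GPAM, of mitochondria, 474 ± 12.6 CPM in DNL, 158 ± 14.9 CPM in OA and 825 ± 20.2 CPM in WT. DGAT2, which adds the last acyl chain of triacylglycerol, averaged 58.3 ± 3.37 CPM in DNL, 14.0 ± 1.90 CPM in OA and 49.6 ± 0.91 CPM in WT (log2 fold change -1.83 in OA against WT, adjusted p = 2.73e-09). Over the 3 lists 37 of 41 genes were tested, and 73% of these were called in DNL against WT, 75.7% in OA against WT and 86.5% in DNL against OA, beside the 53.8%, 60.0% and 62.8% of all genes.

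**Figure D4:**
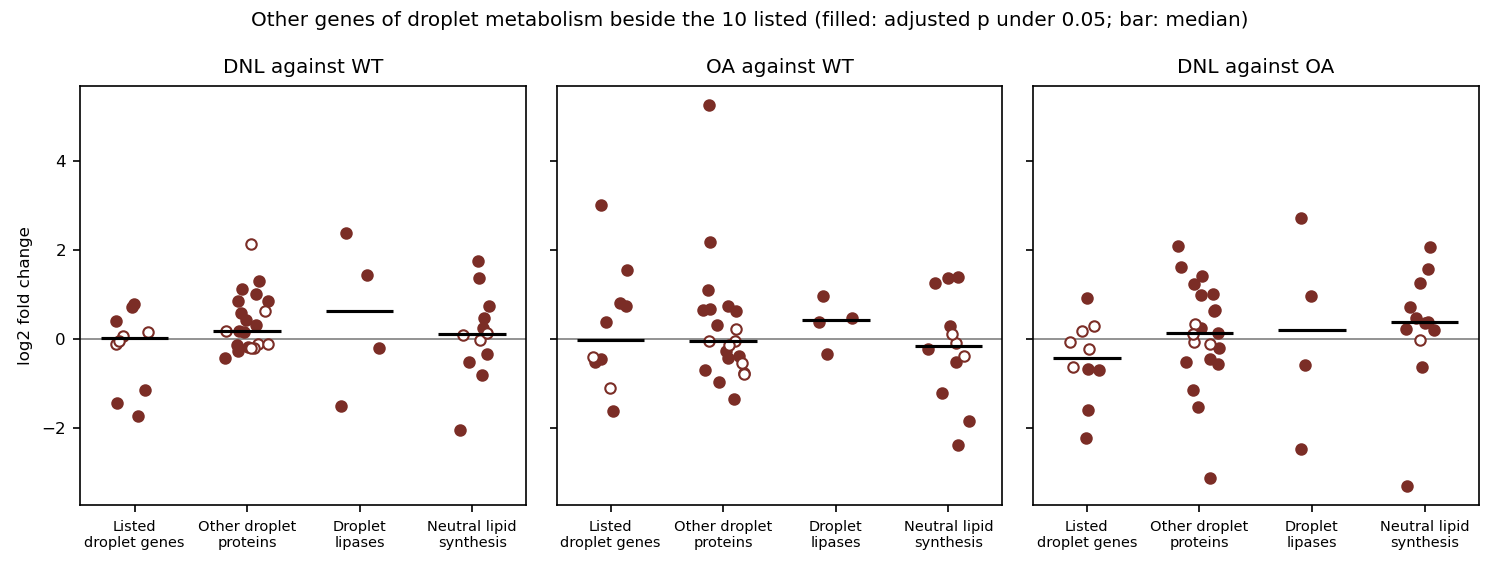
Log2 fold changes (vertical axis) of the 10 listed droplet genes and of the other droplet proteins, droplet lipases and neutral lipid synthesis genes in the 3 comparisons; each point is a gene, filled where adjusted p is under 0.05, and the bar is the list's median. Each list has points on both sides of 0 in every comparison.

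The genes whose changes lay closest to those of PLIN2 were CSRP2, EGFR, ETS1, EMP1 and KIAA0040. Closeness was the straight-line distance between pairs of log2 fold changes (DNL against WT, OA against WT) over 10735 genes with at least 5 CPM in a group, and it was 0.0803 for CSRP2 and 0.274 for KIAA0040. CSRP2, a LIM domain protein, had log2 fold changes of 0.72 and 2.98, and EGFR, the receptor of epidermal growth factor, 0.80 and 2.88, against 0.79 and 3.02 for PLIN2. Nearest to HILPDA were RANBP6, RAMAC, NUTF2, CACYBP and RBMS2, at distances of 0.0166 to 0.0382. These distances are smaller than the SE of HILPDA's own log2 fold changes (0.153 and 0.156). Which genes lie nearest to it is therefore not settled.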

How the data were processed

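RNA was measured in 9 HepG2 samples, 3 each of DNL, OA and WT; per the labels' protocols, libraries were stranded and made from total RNA after ribosomal depletion. The authors deposited estimated counts per Ensembl gene, made with kallisto 0.48.0 after FastQC 0.11.9 on GRCh38, per the submitters' processing notes. For the annotation release and the strand setting, the sources used here give nothing, so reads of overlapping genes may be split by the estimator. Groups come from sample titles, since the shared treatment text gives all samples the DNL recipe.

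Estimated counts were rounded, filtered with filterByExpr (13636 of 19317 genes kept), TMM-scaled and fitted in a single model of all 9 libraries with edgeR 4.0.16 (estimateDisp and glmQLFit, robust, then glmQLFTest) in R 4.3.3. SE was derived from the F statistic. Symbols matched 19315 identifiers; METTL7A and METTL7B were matched by these older symbols. Alternatives were RLE or library-total scaling, no filter, DESeq2 1.42.0, fits of 2 groups, a replicate block and the omission of each library. The procedure was tested on simulated counts. The labels do not state that replicates came from separate cultures; p-values then measure only spread among these libraries, possibly technical. Replicate pairs differed beyond sampling noise (chi-square per degree of freedom 5.4 to 16.3). Genes and lists were chosen with earlier results of these data known. Besides the 10 genes, the 2 called genes of smallest adjusted p per list, direction and comparison could be named, as could genes of a count of 5 or fewer, overlapping genes and the 5 genes nearest to PLIN2 and to HILPDA; others are marked.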

Additional observations from a re-analysis of the deposited data

How the results depend on the processing

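The 10 genes gave 434 of 450 alternative values with the direction and the side of the threshold that are reported, over 15 alternatives in each of 3 comparisons; 6 became calls, 4 lost a call and 6 turned sign. All 6 that turned sign were not called on either side. They were CIDEB and CIDEC in DNL against WT (-0.10 and -0.015) and PLIN5 in DNL against OA (-0.043) with scaling by library totals, BSCL2 in DNL against WT without DNL replicate 1 (0.070) or WT replicate 3 (0.02), over -0.30 to 0.070 with single libraries left out, and HILPDA in DNL against OA without DNL replicate 3 (0.0098, over -0.13 to 0.0098). The number of the 10 genes called ran from 5 to 6 in DNL against WT, 7 to 9 in OA against WT and 5 to 6 in DNL against OA when single libraries were left out. The numbers of all genes called then ran from 6468 to 7664, 7509 to 8223 and 7983 to 8534, and those of the other droplet metabolism genes from 24 to 28, 27 to 31 and 28 to 33, in the same order of comparisons.

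Deviations of same-numbered libraries correlated at -0.0212 to 0.106, so no clear pairing by replicate number was seen. These values do not settle whether same-numbered libraries were handled together. With a replicate block, 6, 9 and 5 of the 10 genes and 7245, 8099 and 8472 of all genes were called, the added gene being BSCL2 in OA against WT (log2 fold change -0.44, adjusted p = 0.0258), whose cause was not tested. Depth limits PLIN5 and FITM1, which rest on at most 104 summed counts in each treated group.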

Other observations

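PPAR targets, to which PLIN2 belongs in the textbook account, included calls in both directions in each comparison. Of 13 tested of 15 listed, 5 were higher and 3 lower in DNL against WT, 5 were higher and 8 lower in OA against WT, and 7 were higher and 4 lower in DNL against OA. Of all genes tested, 53.8%, 60.0% and 62.8% were called in these comparisons, in the same order. Higher calls made up 27.1%, 30.4% and 31.9% of all genes, and lower calls 26.8%, 29.7% and 30.9%. CREB3L3, a liver transcription factor of fasting, averaged 6.20 ± 0.667 CPM in DNL, 84.3 ± 1.56 CPM in OA and 18.1 ± 0.807 CPM in WT (SD, n = 3; adjusted p = 9.78e-09 and 1.00e-10 against WT). CPT1A, which lets fatty acids into mitochondria, rose in both models (log2 fold changes 0.47 and 0.82), whereas EHHADH, an enzyme of peroxisomal oxidation, fell in OA against WT (log2 fold change -1.26). The largest rises of the list in OA against WT were in PDK4 and ANGPTL4 (log2 fold changes 9.84 and 2.81, adjusted p = 1.31e-06 and 5.07e-08). PDK4 had summed counts of 0 in WT, 2 in DNL and 251 in OA, so its fold change has no measured base. ANGPTL4 also rose in DNL against WT (log2 fold change 2.16, adjusted p = 6.7e-07), where PDK4 was not called.

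Targets of the hypoxia response include HILPDA in the textbook account, but the list used does not. That list, like the other lists, was chosen with earlier results of these data known, so its counts are not independent of them. Of its 14 genes, 14 were higher in DNL than in WT, with a median log2 fold change of 2.09. Of all genes tested, 27.1% were higher. In OA against WT 9 were higher and 5 lower (median 0.62), where 30.4% of all genes were higher and 29.7% lower. The log2 fold change of HILPDA against WT was 0.72 in DNL and 0.80 in OA. NDRG1, a stress-induced gene, rose in both (log2 fold changes 2.97 and 2.44, adjusted p = 3.54e-12 and 1.91e-11). The mitochondrial kinase PDK1 averaged 129 ± 4.60 CPM in DNL, 27.3 ± 1.10 CPM in OA and 60.5 ± 2.70 CPM in WT, so it rose in DNL and fell in OA (adjusted p = 3.99e-09 and 4.75e-09 against WT).

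Of 9 genes of the endoplasmic reticulum stress response, in the membrane where droplets bud, 2 were higher and 5 lower in DNL against WT (median log2 fold change -0.37), 7 were higher and the other two not called in OA against WT (median 1.55), and 1 was higher and 8 lower in DNL against OA (median -2.14). The shares of all genes called were 53.8%, 60.0% and 62.8% in these comparisons, in the same order. By direction, 27.1%, 30.4% and 31.9% of all genes were higher and 26.8%, 29.7% and 30.9% lower.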
